A study of Homo sapiens with 8 samples.

Results

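DNMT1, UHRF1, HELLS, DNMT3A and DNMT3B were followed as the enzymes and partners that write and copy DNA methylation. Every probe whose annotated gene symbol, or its current synonym, was one of these 5 names was taken, which gave 8 probes among the 22011 probes of the authors' table. DNMT1, UHRF1 and HELLS had 1 probe each, DNMT3A had 3 and DNMT3B had 2. All 8 arrays were of total RNA from A549, an established human lung adenocarcinoma line, on an Illumina BeadChip, and every array carried a hairpin against GLP, the histone methyltransferase encoded by EHMT1. The groups were 0 h and 24 h of 100 nM dexamethasone, a synthetic glucocorticoid, with 4 arrays each. Cells had stood in hormone-stripped serum and medium lacking phenol red before the hormone. The labels give neither the number of hairpins or clones nor whether the replicates were separate cultures, so p-values measure the spread between these arrays, which may be technical. No 24 h array without dexamethasone and no array without the hairpin was analysed here, so time in culture cannot be told apart from hormone, and no value speaks to the hairpin itself. In bulk RNA, fewer cells that express a gene and less of its RNA per cell cannot be told apart.

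DNA methylation at CpG dinucleotides is laid down by de novo enzymes and then copied at each round of DNA replication. DNMT1 restores the mark on the new strand, UHRF1 binds hemimethylated CpGs behind the replication fork and brings DNMT1 there, and HELLS is an SNF2-family ATPase that opens nucleosomal DNA to the methylation machinery. DNMT3A and DNMT3B can methylate CpGs that carry no mark on either strand. DNMT1, UHRF1 and HELLS are called the maintenance genes here, and placing HELLS among them was a choice that was not tested. Because copying accompanies replication, the maintenance genes are known to be expressed mostly in cycling cells, and UHRF1 and DNMT1 are known targets of E2F factors, the activators of S phase genes. In mouse embryonic stem cells, GLP and its partner G9a are known to bind DNMT3A and DNMT3B.

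E2F-like letters stood in windows of all 3 maintenance genes and in no window searched of the de novo genes. The promoter stretches that hold them are shown first. Windows of 300 bases, 250 before to 50 after each annotated transcript start, were taken from RefSeq on GRCh38.p14, and all 5 genes matched, with 12 windows in all. The letters searched on both strands were TTTGGCGC, TTTCCCGC, TTTGGCGG and TTTCGCGC, which are E2F-like, and CCAAT. TTTGGCGC and TTTGGCGG share all but their last base. Each stretch below runs 5′ to 3′ on the gene's strand from 190 bases before a start to 10 bases after it, and capitals mark the E2F-like matches. DNMT1 lies at chr19:10194944-10195143 on the minus strand, the first UHRF1 start at chr19:4909311-4909510 and the second at chr19:4909954-4910153, both on the plus strand. HELLS lies at chr10:94545598-94545797 on the plus strand. DNMT3B, shown by the only start it has here, lies at chr20:32779662-32779861 on the plus strand. Whether this start is the main promoter of DNMT3B was not determined, so its lack of E2F-like letters speaks for this window alone.
DNMT1: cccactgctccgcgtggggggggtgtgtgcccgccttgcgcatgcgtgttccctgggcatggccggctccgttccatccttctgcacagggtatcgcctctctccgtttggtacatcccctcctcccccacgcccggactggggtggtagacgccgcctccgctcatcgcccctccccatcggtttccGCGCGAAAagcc
UHRF1, first start: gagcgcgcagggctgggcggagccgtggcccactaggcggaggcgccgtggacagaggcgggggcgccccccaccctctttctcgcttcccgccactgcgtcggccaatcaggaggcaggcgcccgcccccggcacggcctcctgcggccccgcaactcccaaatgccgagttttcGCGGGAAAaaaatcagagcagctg
UHRF1, second start: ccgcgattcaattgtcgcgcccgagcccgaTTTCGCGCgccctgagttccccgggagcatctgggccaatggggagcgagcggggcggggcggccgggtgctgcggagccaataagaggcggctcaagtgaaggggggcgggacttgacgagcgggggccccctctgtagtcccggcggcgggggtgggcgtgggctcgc
HELLS: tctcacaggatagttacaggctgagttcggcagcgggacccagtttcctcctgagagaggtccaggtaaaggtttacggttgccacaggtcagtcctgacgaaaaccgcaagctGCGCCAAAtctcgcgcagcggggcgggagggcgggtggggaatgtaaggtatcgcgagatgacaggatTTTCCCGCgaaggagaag
DNMT3B: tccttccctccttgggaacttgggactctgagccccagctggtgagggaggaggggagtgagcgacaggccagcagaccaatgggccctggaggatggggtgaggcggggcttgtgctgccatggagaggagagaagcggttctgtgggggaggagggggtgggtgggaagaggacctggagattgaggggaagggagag

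An E2F-like match stood in 4 of the 5 windows of DNMT1, UHRF1 and HELLS and in 0 of the 7 windows of DNMT3A and DNMT3B. Of these 7, 6 were of DNMT3A and 1 of DNMT3B, so any other start of DNMT3B was not searched. Some windows share bases: those of DNMT3A starts 1 to 3, of DNMT3A starts 5 and 6, and of UHRF1 starts 2 and 3. The windows are thus not separate stretches, and their counts overstate how much sequence was searched. Among all 35116 windows of the same length, 3.35% held at least 1 of the 4 E2F-like motifs. Counted by gene, 6.68% of the tested genes with a window held one. In DNMT1 the match GCGCGAAA began 2 bases before the start and ran across it. HELLS held 2 matches, GCGCCAAA beginning 76 bases and TTTCCCGC beginning 8 bases before the start. UHRF1 held GCGGGAAA 14 bases before its first start and TTTCGCGC 160 bases before its second, and its remaining window held none. CCAAT stood in the windows of HELLS, DNMT3B and both UHRF1 starts printed above, and in 34.6% of all windows. CpG dinucleotides numbered 30 in the DNMT1 window, 36 to 46 in those of UHRF1, 22 in that of HELLS and 18 to 46 in the 6 windows of DNMT3A, against a median of 14 over all windows. The DNMT3B window held 3. A match is a string of letters and was not tested as a binding site.

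**Figure D1:**
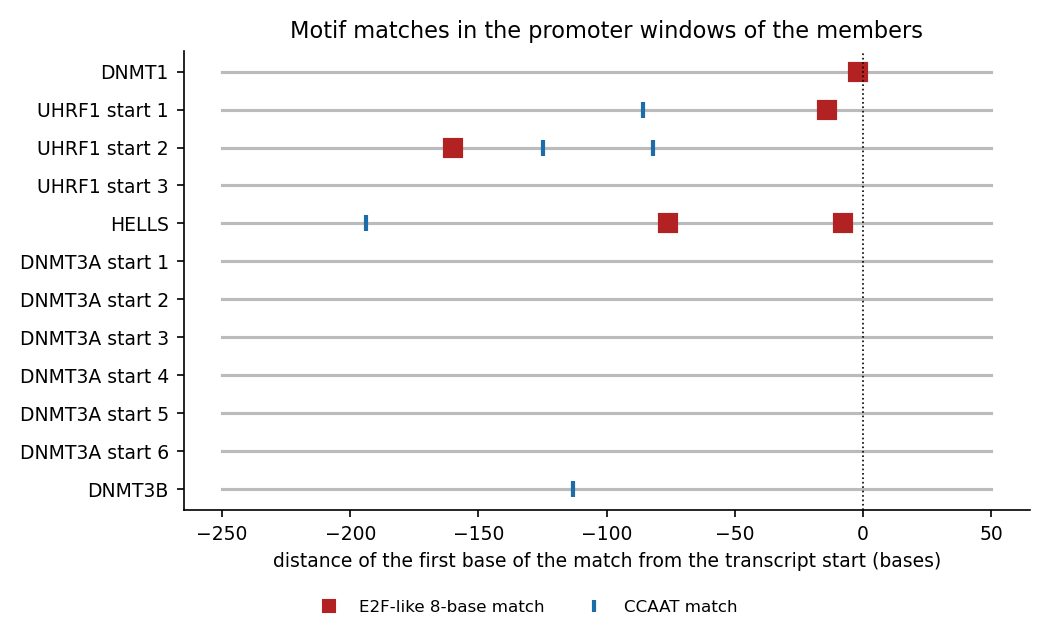
Position of E2F-like matches (red squares) and CCAAT matches (blue ticks) in the 12 promoter windows of the 5 genes, by the distance in bases of the match's first base from the transcript start (dotted line). Red squares lie in 4 windows of DNMT1, UHRF1 and HELLS and in none of those shown for DNMT3A or DNMT3B. Some windows of DNMT3A and of UHRF1 overlap.

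A probe counted as detected on an array where its detection p-value, which sets its brightness against the negative controls, was under 0.05. Between 13897 and 14797 probes were detected per array, and the median raw intensity ran from 137.5 to 272.7. Probes detected on at least 4 of the 8 arrays were tested, 14533 in all, and 5 of the 8 member probes were among them, 1 for each gene. EHMT1, the gene the hairpin targets, lay at log2 5.13 to 5.57 at 0 h and 5.68 to 5.81 at 24 h, detected on 1 of 4 and 4 of 4 arrays (change 0.36 ± 0.13 SE, limma adjusted p = 0.130). All 10 listed markers of the A549 line passed the detection filter. Limma called 4 of them higher at 24 h, where 4.72% of all tested genes were, and 0 lower. Changes of 3 were below 0, and 1 of these, KRT19, was called lower in a fit blocked on replicate number (limma adjusted p = 0.0353). The summed level of 6 fibroblast markers was 229.2 to 471.0 at 0 h and 275.5 to 458.3 at 24 h, against 156900 to 174600 for the A549 markers over both times. COL1A2, COL3A1 and PDGFRB of the fibroblast list, CD3E and PTPRC of the leukocyte list and CDH5, TEK and VWF of the endothelial list were detected on no array. Of the fibroblast list, DCN, undetected on every 0 h array and detected on every 24 h array, was called higher, and COL1A1 fell by 1.22 on the log2 scale. Their part in the results was not tested. The leukocyte list summed to 455.8 to 612.8 and 269.1 to 508.6, and the endothelial list to 254.7 to 280.4 and 224.6 to 295.8.

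Of the 5 tested members, DNMT1 and HELLS fell after 24 h of dexamethasone, and UHRF1, DNMT3A and DNMT3B did not pass the test. DNMT1 fell 1.67-fold and HELLS 2.43-fold. In the same limma test, 585 of 10964 genes, or 5.34%, were lower at 24 h at an adjusted p under 0.05 and 518, or 4.72%, were higher, 10.1% in all. Over probes these shares were 4.91% lower and 4.89% higher, or 9.79% in all. Both members that fell were grouped here as maintenance genes, but UHRF1 of the same group was not called. Neither tested de novo gene was called, and the probes of UHRF1 and DNMT3A lay near background, where a change is hard to call.

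DNMT1, the maintenance methyltransferase, was the brightest of the 8 probes, and 95.1% of all probes were dimmer. Its normalised log2 level at 0 h was 12.69, 13.04, 13.03 and 13.30 in replicates 1 to 4. At 24 h it was 12.33, 12.42, 12.03 and 12.33 in the same order. Every 24 h array lay below every 0 h array, a pattern that 9.1% of tested genes and 8.39% of tested probes showed in this direction. The mean went from 13.02 ± 0.25 to 12.28 ± 0.17 (SD, n = 4 arrays each). The change was -0.74 ± 0.16 on the log2 scale (SE, 95% interval -1.09 to -0.39, limma adjusted p = 0.0137), and 3.92% of tested probes had a lower change. Raw intensity was 3542 to 12027 at 0 h and 3722 to 5501 at 24 h, each a mean over 25 to 44 beads. In these raw values replicate 1 was slightly lower at 0 h (3542) than at 24 h (3722), on the array with the lowest median intensity.

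HELLS, the chromatin-opening ATPase, had the largest change of the 5 members. The 0 h arrays of replicates 1 to 4 read log2 10.27, 10.67, 10.28 and 10.60, and the 24 h arrays read 9.39, 9.48, 8.66 and 9.16. The times did not overlap, with the highest 24 h array at 9.48 and the lowest 0 h array at 10.27. The mean went from 10.45 ± 0.21 to 9.17 ± 0.37 (SD, n = 4 arrays each). The change was -1.28 ± 0.19 (SE, 95% interval -1.71 to -0.85, limma adjusted p = 0.00227), and 1.00% of tested probes had a lower one. Its detection p-value was 0 on all 8 arrays.

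UHRF1, which guides DNMT1 to hemimethylated CpGs, was read by a probe close to background. The 0 h arrays of replicates 1 to 4 gave log2 levels of 5.37, 5.82, 5.90 and 7.05, and the 24 h arrays 5.77, 5.77, 5.49 and 5.29. The times overlapped, and 0 h replicate 4 stood well above the other arrays. Detection p-values ran from 0 to 0.108, and the probe was detected on 3 of 4 arrays at each time. The change of -0.45 ± 0.30 (SE) did not pass (95% interval -1.13 to 0.22, limma adjusted p = 0.444). Without 0 h replicate 4 it was -0.12, so this array carries most of the estimate. Its interval holds both no change and a change as large as that of DNMT1.

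**Figure D2:**
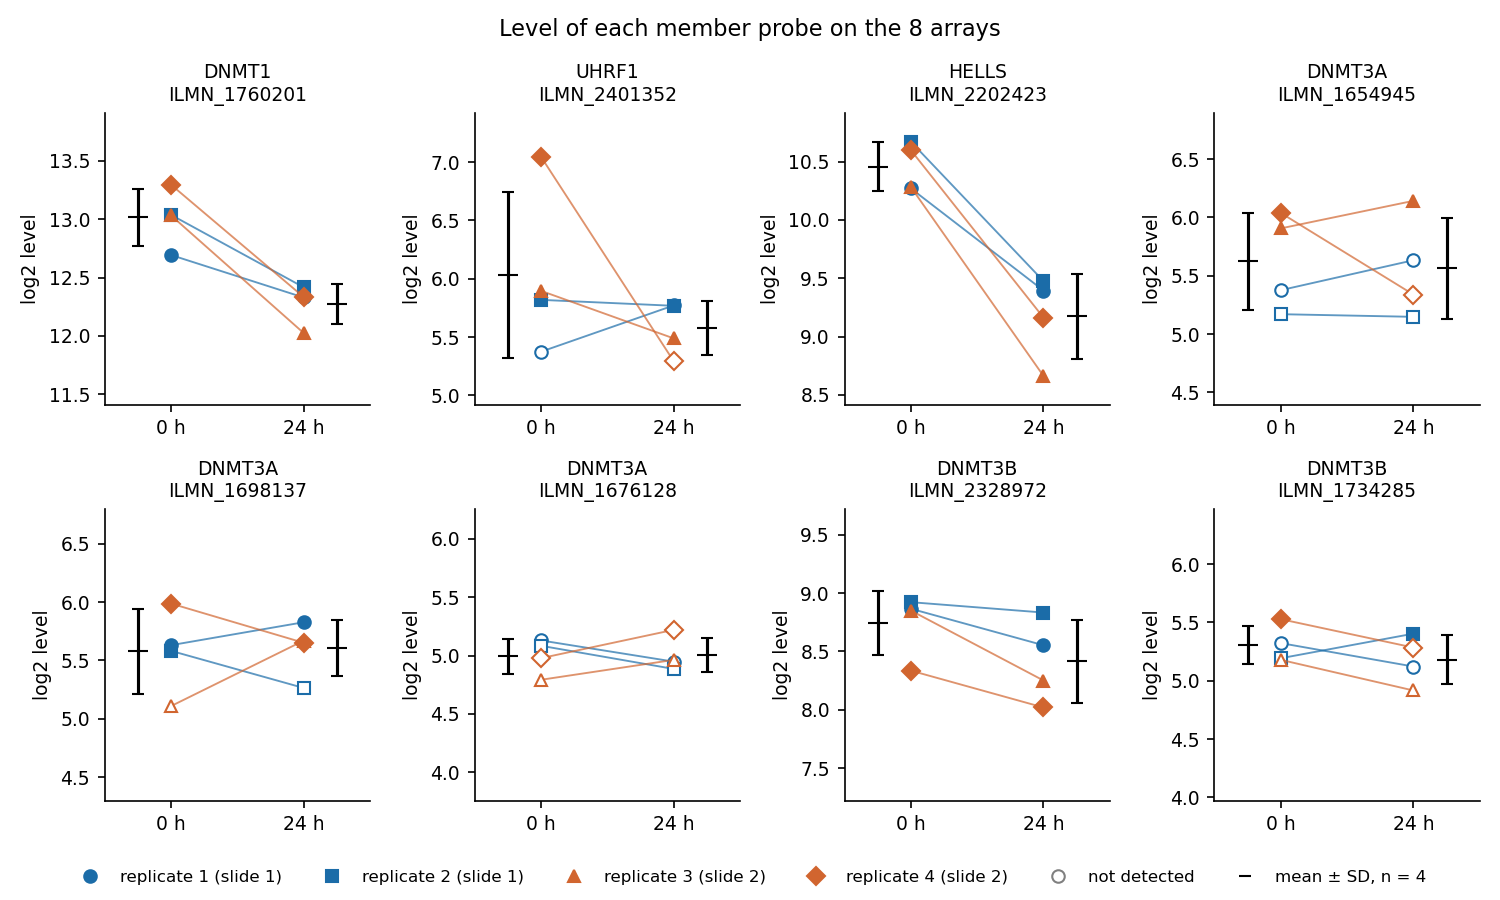
Normalised log2 level (y axis, the same span of 2.5 log2 units in each panel) of each of the 8 member probes at 0 h and 24 h. Points are arrays, shaped by replicate and coloured by slide, open where the probe was not detected, with lines joining the same replicate number and bars giving mean ± SD over 4 arrays. All 24 h points lie below all 0 h points for DNMT1 and HELLS, and the times overlap for the other 6 probes.

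Of the de novo enzymes, DNMT3B was detected on all 8 arrays by its brighter probe, ILMN_2328972. Replicates 1 to 4 stood at log2 8.87, 8.92, 8.85 and 8.34 before dexamethasone and at 8.55, 8.83, 8.25 and 8.02 after 24 h. Each replicate was lower at 24 h, but the times overlapped because 0 h replicate 4 lay low. The change of -0.33 ± 0.20 (SE) did not pass (95% interval -0.78 to 0.12, limma adjusted p = 0.389). This interval holds both no change and a change as large as that of DNMT1 (-0.74). The dimmer probe of the same gene, ILMN_1734285, lay between 4.92 and 5.53, was detected on 1 of 4 arrays at each time and was not tested. It is annotated to another transcript of DNMT3B.

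DNMT3A was near background on all 3 of its probes, each annotated to a different transcript. On the tested probe, ILMN_1698137, replicates 1 to 4 stood at log2 5.63, 5.58, 5.11 and 5.99 before dexamethasone and at 5.83, 5.26, 5.67 and 5.65 after 24 h. Replicates shared no direction. The probe passed detection on 3 of 4 arrays of each time, and its change was 0.03 ± 0.20 (SE, 95% interval -0.41 to 0.46, limma adjusted p = 0.961). ILMN_1654945 went from 5.62 ± 0.42 to 5.56 ± 0.43 (SD, n = 4 arrays each) and was detected on 2 and 1 of 4 arrays. ILMN_1676128 was detected on none, with detection p-values from 0.128 to 0.382. The estimates for DNMT1 and HELLS lie outside the interval of the tested probe, but the DNMT1 interval (-1.09 to -0.39) overlaps it. The offset added before taking logs compresses the change of a probe as dim as those of DNMT3A or UHRF1. The DNMT3A interval thus bounds the probe's signal and not the transcript.

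**Figure D3:**
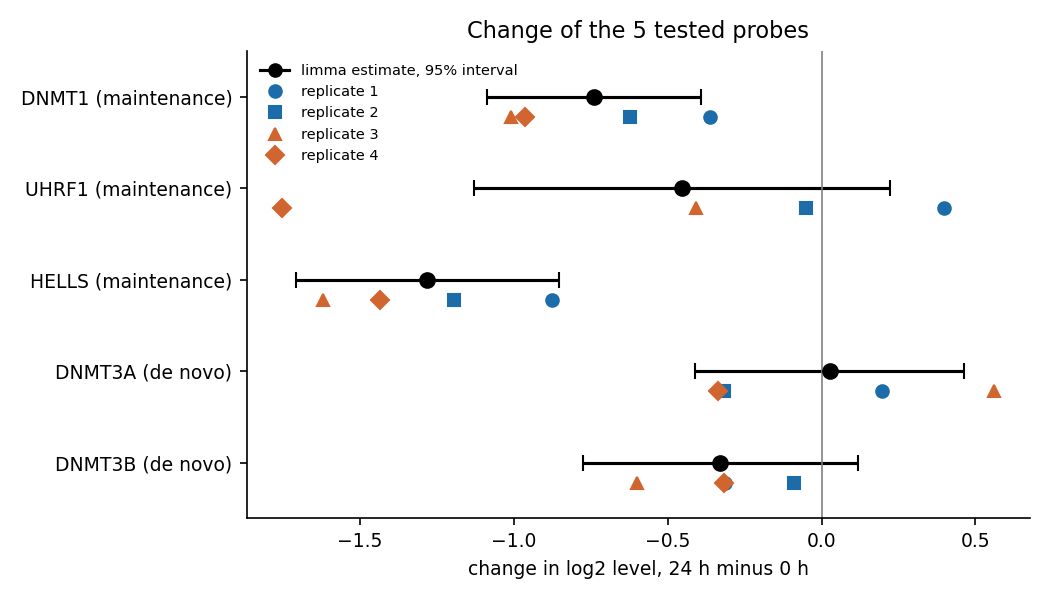
Change in log2 level at 24 h relative to 0 h (x axis) for the 5 tested probes. Black points and bars are limma estimates with 95% intervals, and coloured symbols below them are the differences within each replicate number. The intervals of DNMT1 and HELLS lie below 0 and those of UHRF1, DNMT3A and DNMT3B span it.

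Whether maintenance genes changed more than de novo genes was tested on the difference between the log2 values of 2 genes within each array, for the 6 pairs of a maintenance and a de novo gene. With 4 arrays against 4 the exact permutation test cannot go below p = 0.0286. HELLS differed from DNMT3A by -1.31 ± 0.29 (SE) in its change and from DNMT3B by -0.95 ± 0.25, both at that smallest two-sided exact p of 0.0286, or 0.0857 adjusted over the 6 pairs. DNMT1 differed from DNMT3A by -0.76 ± 0.25 (exact permutation p = 0.0571, adjusted 0.114) and from DNMT3B by -0.41 ± 0.29 (exact permutation p = 0.229, adjusted 0.274). For these 4 pairs the maintenance gene was lower relative to its de novo partner in 4 of 4 replicates. UHRF1 differed from DNMT3A by -0.48 and from DNMT3B by -0.12 (adjusted p = 0.274 and 0.971, exact permutation). No pair passed 0.05 after adjustment, which at this floor needs at least 4 of the 6 pairs to reach it. The test thus shows neither a difference between the roles nor its absence.

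The size of the fall differed between the slides the arrays sat on. Replicates 1 and 2 share slide 1, and replicates 3 and 4 share slide 2. Within replicate numbers, DNMT1 changed by -0.36 and -0.62 on slide 1 and by -1.01 and -0.96 on slide 2. HELLS changed by -0.88 and -1.19 on slide 1 and by -1.62 and -1.44 on slide 2. The slide means were thus -0.49 and -0.99 for DNMT1 and -1.03 and -1.53 for HELLS, each the same direction in all 4 replicates. With 2 arrays against 2, DNMT1 did not pass on slide 1 (limma adjusted p = 0.223) or slide 2 (adjusted p = 0.0634), and HELLS did not pass on slide 1 (adjusted p = 0.0505). DNMT3B changed by -0.20 on slide 1 and -0.46 on slide 2, and UHRF1 by 0.17 and -1.08. The difference between slides was not tested.

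Genes of DNA replication, the process that maintenance methylation accompanies, were set beside the members. This list was chosen with earlier results of these data known. Of 22 tested replication genes, 21 were lower and 0 higher, where 5.34% and 4.72% of all tested genes were. The median log2 change of these 22 genes was -1.28 against -0.01 over all tested genes. Their median was -0.96 on slide 1 and -1.68 on slide 2, larger on the slide where DNMT1 and HELLS also fell more. GINS3, a subunit of the replicative helicase complex, fell by 0.97 ± 0.12 (SE) on the log2 scale, and MCM7, another, fell by 1.32 ± 0.18 on the brightest of 3 called probes. GINS4 fell by 1.25 ± 0.18 and MCM5 fell by 1.52 ± 0.22, with limma adjusted p for these 4 genes between 0.000971 and 0.00208. The lowest change was that of CDC45, a partner of the same helicase, at -1.99 ± 0.31. The 1 gene that did not pass was GINS1, at -0.28 ± 0.20 (adjusted p = 0.464). The change of HELLS lay at the middle of this list and that of DNMT1 above all but 1 of its members. The part of the replication genes' change in that of DNMT1 and HELLS was not tested.

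Of 13 tested genes that supply or guide the methylation machinery, 2 were lower and 0 higher, where 5.34% and 4.72% of all tested genes were, with a median change of -0.26. LIG1, the ligase that joins Okazaki fragments and, methylated by G9a or GLP, binds UHRF1, fell by 1.19 ± 0.23 (SE, limma adjusted p = 0.00815). CDCA7, which works with HELLS in remodelling nucleosomes, was lower by its brighter probe at -0.58 ± 0.14 (adjusted p = 0.0270), while its dimmer probe, at -0.67 ± 0.23, did not pass (adjusted p = 0.101). The CDCA7 call was lost on leaving out any 1 array but 0 h replicate 3 or 24 h replicate 2 (change -0.68 to -0.53 over all 8 omissions, adjusted p up to 0.0886). PCNA, the sliding clamp that also holds DNMT1 at the fork, did not pass by its brightest probe at -0.69 ± 0.21 (adjusted p = 0.0657), and of its other probes 1 passed at -1.01 and 1 did not at -0.13. Blocked on replicate number, the brightest PCNA probe passed (adjusted p = 0.0215). LEO1, of the PAF1 elongation complex, was at -0.41, and MAT2A and AHCY, enzymes of the methyl donor cycle, were at 0.27 and -0.19, none past the test. MAT2B, the regulatory partner of MAT2A, was at 0.45 ± 0.26 (adjusted p = 0.363) and passed with the replicate block (adjusted p = 0.0249), which called 1 gene of this list higher and 3 lower. DNMT3L, the inactive partner of the de novo enzymes, was on the array and did not pass the detection filter.

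Of 9 tested genes of cytosine oxidation and base excision, which take part in removing methylated cytosine, 1 was higher and 0 lower, where 10.1% of all tested genes were called. Their median change was 0.18 against -0.01 over all tested genes. The 1 was GADD45A, a stress-induced gene linked to DNA repair and demethylation, which rose by 0.77 ± 0.14 (SE, limma adjusted p = 0.00687). TET1, which oxidises methylcytosine, was at -0.33 ± 0.19 (adjusted p = 0.347), IDH1 at 0.46 and GADD45B at 0.59. CXXC5, a CpG-binding protein, was at -0.51 and passed with the replicate block (adjusted p = 0.0240). Limma called 0 of 3 tested methyl-CpG readers, with 1 at an unadjusted p under 0.05. That gene was ZBTB38, at 0.62 ± 0.20 (adjusted p = 0.0870), which passed with the block (adjusted p = 0.0213), while ZBTB4 was at 0.15 and ZBTB33 at -0.07.

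Germline and imprinted genes, many of which carry DNA methylation in somatic cells, were set beside the members. Some are expressed here, PEG10 and MEG3 being detected on every array, and methylation itself was not measured. Of 23 genes on the array, 8 passed the detection filter. Limma called 0 of these 8, where 10.1% of all tested genes were called, with 2 at an unadjusted p under 0.05. Their median change was -0.01, with -0.02 on slide 1 and -0.24 on slide 2, and single genes lay between -0.58 and 0.45. PEG10 was at 0.45 ± 0.14 (SE, limma adjusted p = 0.0796), MEG3 at -0.58 ± 0.26 (adjusted p = 0.207), MAGEA12 at -0.39 and MAGEA1 at -0.35. MEG3 passed with the replicate block (adjusted p = 0.0351). MAGEA family members are near-identical and may share signal on a probe.

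**Figure D4:**
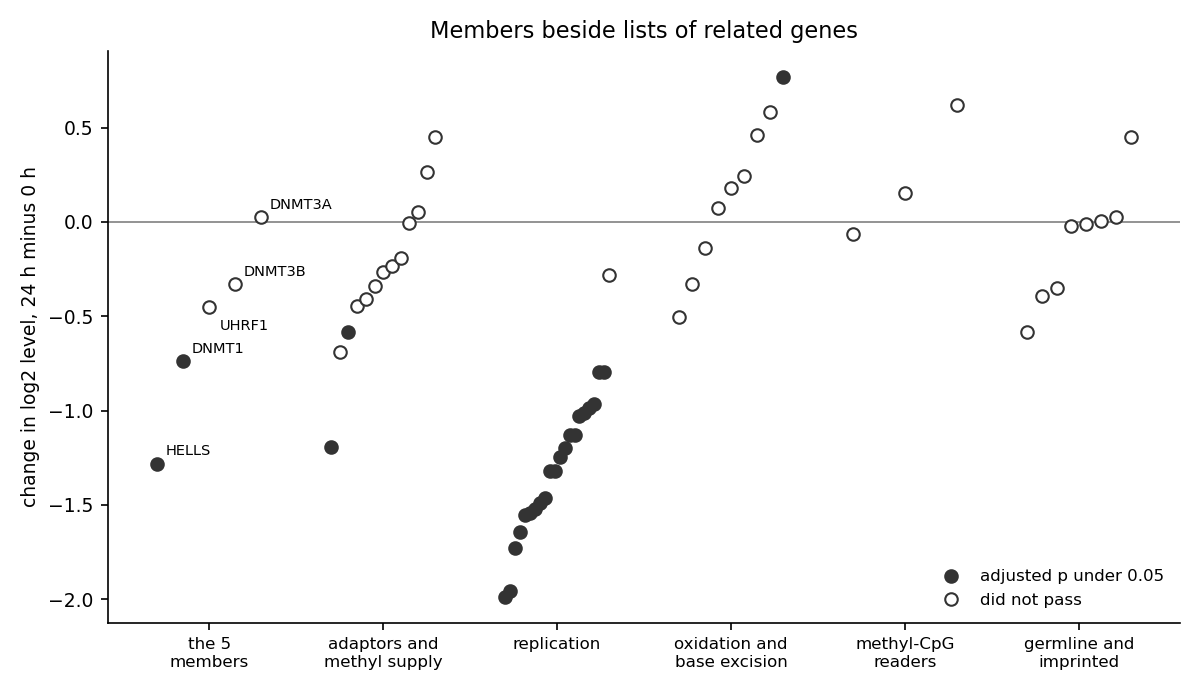
Change in log2 level, 24 h minus 0 h (y axis), of the 5 members and of the tested genes of 5 lists, one point per gene by its brightest tested probe, ordered by size within each list. Filled points passed limma at an adjusted p under 0.05. The replication list lies below 0 throughout, with 21 of 22 genes called, where 10.1% of all tested genes were.

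Among all tested genes, those whose profile over the 8 arrays was closest to each member's were found by the root mean square difference of log2 values, each gene centred on its own mean. The arrays share the split by time and the slides, so likeness reflects both. NUP107, a nuclear pore subunit, was closest to DNMT1 at 0.05, followed by PPP2R3B, a regulatory subunit of protein phosphatase 2A, and LRR1, a ubiquitin ligase adaptor, at 0.09 and 0.10, where the median gene stood at 0.47. Their changes were -0.67, -0.68 and -0.72 (limma adjusted p = 0.0191, 0.0163 and 0.0275). Choosing genes by likeness to a member that fell fixes such changes, so these values describe the choice and support nothing. The NUP107 call was lost without 0 h replicate 2 or 24 h replicate 3, and that of PPP2R3B without 24 h replicate 1 or 3 (adjusted p up to 0.0659 and 0.0547). That of LRR1 was lost without 0 h replicate 3 or 4 or 24 h replicate 1, 3 or 4 (adjusted p up to 0.0860). CCDC138, CEP128, a centriolar protein, and CENPQ, of the inner kinetochore, were closest to HELLS at 0.13 each, against a median of 0.73, with changes of -1.14, -1.32 and -1.24 (limma adjusted p from 0.00118 to 0.00765), chosen in the same way. The closest to DNMT3B were NFE2L2, GNA13 and SIMC1 at 0.08 to 0.11, the closest to DNMT3A were GZF1, GAST and SLC38A12 at 0.09 to 0.11, and the closest to UHRF1 were ARHGAP27, UGCG and IQCC at 0.20 to 0.23, and none of these 9 was called. Among the members themselves, DNMT1 and HELLS were the closest pair at 0.32, with DNMT1 and UHRF1 at 0.36, and HELLS and DNMT3A the farthest at 0.74. These distances hold the change between the times, so they partly restate the members' changes and support nothing further.

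**Figure D5:**
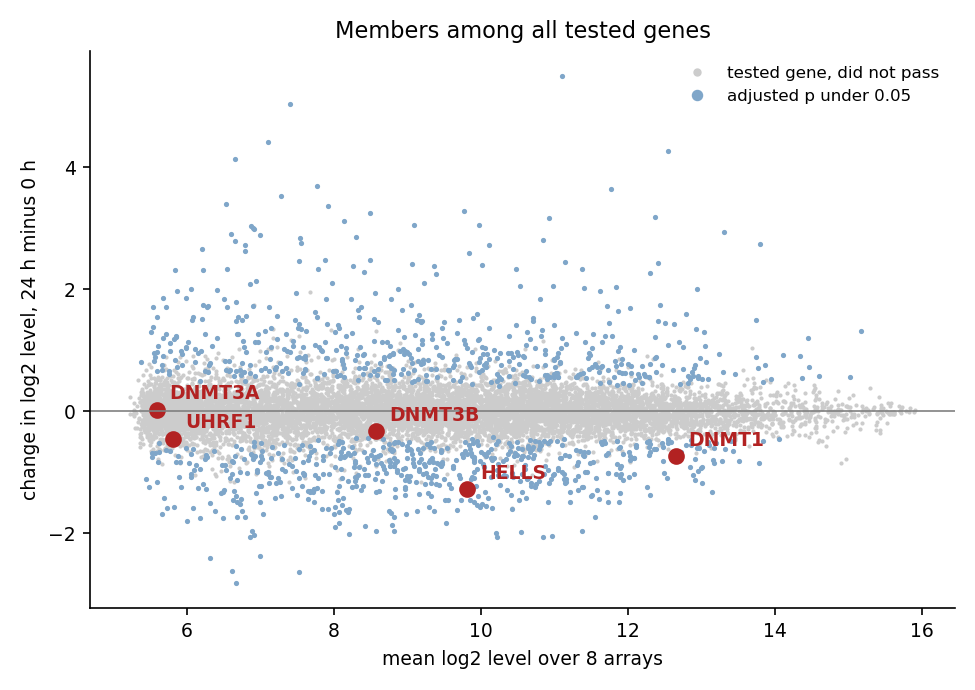
Change in log2 level at 24 h relative to 0 h (y axis) against mean log2 level over the 8 arrays (x axis) for the 10964 tested genes, each by its brightest tested probe. Blue points passed limma at an adjusted p under 0.05, grey points did not, and the 5 members are named in red. DNMT1 and HELLS lie among the lower called genes, and UHRF1 and DNMT3A at the dim end.

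The E2F-like letters were also counted over the tested genes that have a promoter window, 9001 of 10964. Of these, 601 held a match in at least 1 window, or 6.68%. At least 1 window held a match for 82 of 456 genes called lower, or 18.0%, for 14 of 405 called higher, or 3.46%, and for 505 of 8140 not called, or 6.2%. Among 19 replication genes with a window, 13 held a match, or 68.4%. DNMT1 and HELLS, which fell, and UHRF1, which did not pass, each held one. DNMT3A held none, nor did DNMT3B in its only window. These shares are descriptions without a test, and genes with several starts have more windows in which a match can stand. The genes called lower include DNMT1, HELLS and most of the replication genes, so these sets are not independent. The motifs and lists were chosen with earlier results of these data known, and E2F factors' part in any change was not tested.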

How the data were processed

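Intensities of 8 Illumina arrays were used. Per the file headers, the authors' unprocessed table holds a mean bead intensity, a bead number and a detection p-value per array for 25204 rows. A second deposited table holds log2 values of 22011 of them; limma is named in the submitters' processing notes with no version, and how it was applied is not given in the sources used here.

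With R 4.3.3 and limma 3.58.1, nec corrected the intensities for a background inferred from detection p-values and added an offset of 16. The 22011 probes were quantile normalised and put on the log2 scale, and probes with a detection p-value under 0.05 on at least 4 of 8 arrays were tested (14533 probes, 10964 genes by brightest tested probe). lmFit and eBayes compared 24 h with 0 h, two-sided, with Benjamini-Hochberg adjustment over all tested probes and a threshold of 0.05. The fit was tested on simulated data. The number of arrays limits the precision. Pairs of members were compared by an exact permutation test. The platform annotation gives 1 symbol to 19759 probes, several to 0 and none to 2252. Symbols were updated through Entrez identifiers in a RefSeq table of GRCh38.p14.

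Same-numbered arrays of the times deviated together from their group means (r = 0.37 to 0.46 over tested probes), and each of the 8 arrays correlated best with its own number, so the replicate numbers, taken from the labels' titles, were treated as pairs in an alternative fit with a replicate block.

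The members, gene lists and motifs were chosen with earlier results of these data known. Named genes are the members, up to 4 genes of each list with the smallest p, list members given as values, and the 3 genes closest in profile to each member. TET1, MAT2A, MAT2B, AHCY, DNMT3L and GINS1 are such list members, and CDC45 was added as the lowest of its list after its value was seen.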

Additional observations from a re-analysis of the deposited data

Results flagged for a closer look

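The DNMT3B probe ILMN_2328972 read log2 8.34 on 0 h replicate 4, far below the other 3 arrays at 0 h, which lay between 8.85 and 8.92. Its gap to the nearest was 0.878 of the group's range, above Dixon's critical value for 4 samples. Of 16 groups of 4 arrays examined this way, 1 passed that limit, and chance gives about 1 in 20. On the same array UHRF1 read 7.05, the highest of its 8 values, with a gap of 0.688, under the limit. The DNMT3B change without 0 h replicate 4 was -0.47 (limma adjusted p = 0.195).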

How the results depend on the processing

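The falls of DNMT1 and HELLS passed under each alternative run on all 8 arrays (another offset, no background subtracted, the authors' deposited log2 values, median centring, other detection filters, every row, trend with robust estimation, slide block and replicate block) and without any 1 array, at -0.85 to -0.65 for DNMT1 (adjusted p up to 0.0465) and -1.38 to -1.11 for HELLS. On 2 arrays against 2 they did not, except HELLS on slide 2: DNMT1 was at -0.49 on slide 1 and -0.99 on slide 2, and HELLS at -1.03 on slide 1. UHRF1 turned to 0.17 on slide 1 and lay at -0.67 to -0.12 without 1 array, and DNMT3A turned to -0.061 on slide 1 and lay at -0.13 to 0.16, negative without 0 h replicate 3 or 24 h replicate 1. DNMT3B lay at -0.47 to -0.20. UHRF1 and DNMT3A had no value where detection on all 8 arrays, or a detection p-value under 0.01 on at least 4, was required, since they did not pass either filter.

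The replicate block gave 1861 genes and 2432 probes called, against 1103 and 1423. Within slide 1 there were 494 and 620, and within slide 2 there were 402 and 523, where fewer arrays were fitted, and without 1 array 760 to 1027 and 973 to 1316. The block changed no member's call. For the 6 pairs of members, the replicate block allows no p under 0.125 and changed no direction. UHRF1 minus DNMT3B turned to 0.054 with no background subtracted and lay at -0.38 to 0.35 without 1 array (positive without 0 h replicate 4), and the other 5 pairs kept their direction and did not pass. Of list and neighbour genes, none called, GZF1 turned to -0.0017 with no background subtracted and to -0.047 on slide 1, where ARHGAP27 turned to 0.30 and UGCG to 0.15, and ZBTB33 turned to 0.037 on slide 2. Without 1 array, GZF1 lay at -0.18 to 0.16, ARHGAP27 at -0.51 to 0.0072, GAST at -0.18 to 0.029, SLC38A12 at -0.20 to 0.065 and ZBTB33 at -0.19 to 0.011. The replication list had 18 to 21 lower genes without 1 array, 15 within slide 1 and 5 within slide 2. Of named genes that did not pass, the block's calls stand in the report. The slide block also called CXXC5, MEG3, ZBTB38 and PCNA. PCNA passed too with a higher offset, no background subtracted, median centring, trend with robust estimation, within slide 2 and without 24 h replicate 2. PEG10 passed with no background subtracted, IDH1 with trend and robust estimation and GADD45B within slide 1. IQCC passed without 0 h replicate 1, ZBTB38 without 0 h replicate 2, MAGEA12 without 0 h replicate 3 and MEG3 without 0 h replicate 4. Causes of these shifts were not tested. Signal near background limits UHRF1 and DNMT3A.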
